A study of Mus musculus with 8 samples.

Results

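Toll-like receptor 4 (Tlr4) and the NF-kB system it signals to were followed through 10 named genes: the receptor Tlr4, its adaptor Myd88, the NF-kB subunits Nfkb1, Nfkb2, Rela and Relb, the inhibitors Nfkbia and Tnfaip3, and Nlrp3 and Tnf, which NF-kB induces. They were taken by symbol from a table of 18770 genes, and each of the 10 was found. The list was drawn up because alpinetin has been described as an inhibitor of this pathway. Messenger RNA was sequenced in back skin from which the epidermis between the follicles had been removed, taken on day 4 after depilation. The AP group was treated on the skin with alpinetin, a plant flavonoid, at 3 mg/ml in 65% ethanol, and the VC group (vehicle control) with 65% ethanol alone. Both groups were wildtype male C57BL/6J mice aged 7 to 8 wk, and each gave 4 libraries, which carry the group's name and a number (VC.1, AP.1 and so on). The comparison asks how mRNA of the pathway differed between AP and VC skin.

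Tlr4 sits on the cell surface with Ly96 and binds bacterial lipopolysaccharide, and through Myd88, the Irak kinases and Traf6 it activates the IkB kinase complex. That complex marks the inhibitor IkB-alpha, encoded by Nfkbia, for degradation, so that NF-kB dimers enter the nucleus and raise transcription of cytokines, adhesion molecules and their own inhibitors. In skin, keratinocytes, endothelial cells, fibroblasts and resident macrophages can all use this pathway.

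The libraries differed in depth and composition before any gene was compared. Total reads per library on the genes measured here, recovered from the normalized counts, were 7264151, 6833615, 6479827 and 6454563 in VC and 8507783, 10853773, 11190113 and 8863517 in AP. Mitochondrially encoded genes took 54.3, 44.9, 42.1 and 52.3% of the reads in VC and 11.1, 7.85, 5.32 and 10.3% in AP. Values are normalized counts, meaning reads after division by the size factor of the library, and a single read was worth 1.82, 1.48, 1.37 and 1.88 of them in VC and 0.725, 0.539, 0.498 and 0.715 in AP. A count of 0 allows up to 3 reads, which is 5.46 normalized counts in VC.1 and 1.49 in AP.3, and this limit covers counting error only. Low genes were thus measured less precisely in VC than in AP. Reads outside the mitochondrial genes were also drawn down to the smallest such number in a library. The log2 fold changes were then 0.57 for Nfkb1, 0.80 for Nfkbia and 2.27 for Tnfaip3, against 0.59, 0.80 and 2.30 with all reads. Size factors computed without mitochondrial genes gave 0.59, 0.80 and 2.30. Beyond the draw-down of reads, the part of depth in the results was not tested, and the part of the mitochondrial share was not tested. Whether the tissue was handled alike in both groups is not stated in the sources used here.

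Nfkb1, Nfkbia and Tnfaip3 were higher in AP than in VC, and the receptor, the adaptor, the other subunits, Nlrp3 and Tnf did not pass the test. Of the 10 genes, 3 were called higher at an adjusted p under 0.05, where 6.33% of the 15964 genes tested were called higher. None was called lower, where limma called 4.0% of all genes tested lower, and edgeR and DESeq2 called none of the 10 lower either. At an unadjusted p under 0.05, 3 of the 10 were higher in limma and 0 lower, where 17% of all genes were higher and 13.3% lower. For the same 3 genes the lowest AP library exceeded the highest VC library, where 10.3% of all genes tested showed this order, and none of the 10 genes showed the opposite order, which 8.91% of all genes did. The median log2 fold change was 0.59 over the 10 genes and 0.058 over all genes tested, with 9 of the 10 above 0. This difference rested on VC.1. Without it the median was 0.051 over the 10 genes and 0.020 over all genes, with 5 of the 10 above 0. With all libraries, edgeR gave a median of 0.23 for the 10 genes. Scaling to total counts instead moved the median of all genes to 0.90, a shift of 0.84, and relative to that median the fold changes were 0.56 for Nfkb1, 0.77 for Nfkbia and 2.25 for Tnfaip3.

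**Figure D1:**
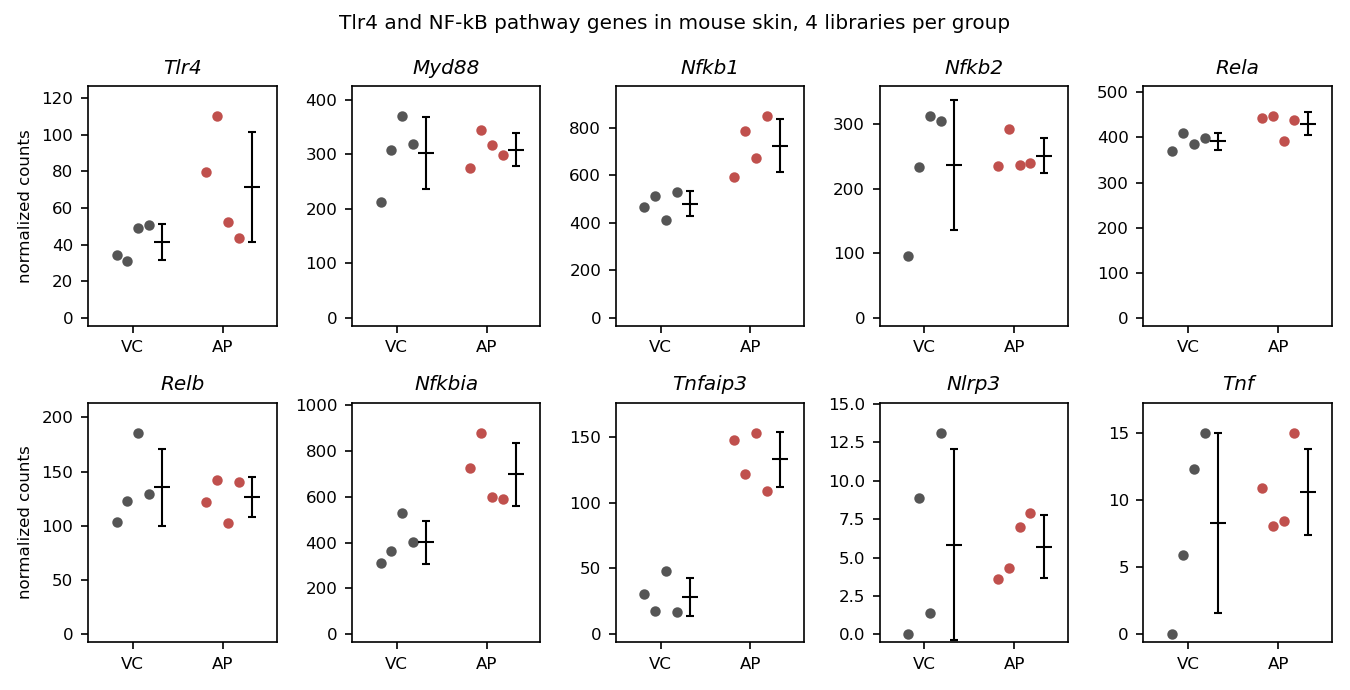
Normalized counts (vertical axis, from 0) of the 10 pathway genes in each VC (grey) and AP (red) library, with the mean and SD of 4 libraries as a black bar. Tnfaip3 lies between 16.9 and 47.8 in VC and between 109 and 153 in AP, Nfkb1 and Nfkbia also separate, and the groups of the other 7 genes overlap.

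Tlr4 (ENSMUSG00000039005, chr4:66827584-66930284, plus strand, mm10), the lipopolysaccharide receptor, had 34.6, 31.0, 49.2 and 50.6 normalized counts in VC and 79.8, 110.0, 52.3 and 43.6 in AP, in the order of the library numbers. AP.1 and AP.2, and by a small margin AP.3, lay above every VC library, while AP.4 fell inside the VC range. The fold change did not pass the test (log2 fold change 0.71 ± 0.35 SE, adjusted p = 0.197), and its 95% interval of -0.063 to 1.49 reaches from just below 0 to well above it. These values rested on 19, 21, 36 and 27 reads in VC and 110, 204, 105 and 61 in AP. Without AP.2 the log2 fold change was 0.48. Among 11256 genes with a mean of at least 50 normalized counts, those whose log2 values followed Tlr4 most closely over the 8 libraries were Nr2f2, Gpr146, Eng, Hspg2 and Fzd4, with Pearson's r from 0.959 to 0.973, as a description over libraries that share their treatment. Eng encodes endoglin, a surface protein of endothelial cells, and Hspg2 encodes perlecan, a proteoglycan of basement membranes. The 5 endothelial markers (Pecam1, Cdh5, Kdr, Tek and Emcn), of which Pecam1 was the most abundant and none was at 0, summed to 720.3, 562, 1064 and 1223 normalized counts in VC and 1886, 4786, 1678 and 1777 in AP. AP.2 was the highest library for both that sum and Tlr4, and the part of endothelial RNA in the Tlr4 values was not tested. In bulk tissue, fewer cells of a type and less RNA per cell cannot be told apart.

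The other Toll-like receptors and their co-receptors showed no common direction. Of the 16 genes, 15 were tested and limma called 0 in either direction (against 6.33% higher and 4.0% lower over all genes). At an unadjusted p under 0.05 there were 1 higher and 2 lower (against 17% and 13.3%), while edgeR called 0 and DESeq2 called 0 higher and 1 lower. Their median log2 fold change was -0.38, with 6 above 0 and 9 below. Cd14, which hands lipopolysaccharide to Tlr4, had 216, 115, 92.9 and 221 normalized counts in VC and 184, 125, 77.7 and 113 in AP (log2 fold change -0.33 ± 0.34 SE, adjusted p = 0.539). Ly96, the partner that Tlr4 needs to bind its ligand, had 67.3, 29.6, 30.0 and 18.8 in VC and 19.6, 12.9, 29.4 and 22.2 in AP (log2 fold change -0.67 ± 0.46 SE, adjusted p = 0.350). For both genes the AP libraries lay within or below the VC range, and neither difference exceeded the spread between libraries. Tlr2, a receptor for bacterial lipoproteins, ranged from 3.64 in VC.1 to 111 in VC.4 and from 35.0 to 51.8 in AP, so that the VC libraries alone spanned a wider range than the groups differed by. Without VC.1 its log2 fold change turned from 0.66 to -0.17, and edgeR gave -0.10. The 12 macrophage and monocyte markers summed to 19482, 10146, 8974 and 26162 in VC and 12224, 8225, 5923 and 6182 in AP, with Lyz2 the most abundant and none at 0 (two-sided exact permutation p = 0.114, 0.229 after adjustment over 14 sums). All 12 had log2 fold changes below 0. Under total counts only 5 were below 0, but all 12 were below the median of all genes at 0.90, with Csf1r the highest at 0.72. Limma called 0 of them, with 0 higher and 7 lower at an unadjusted p under 0.05 (against 17% and 13.3% of all genes). Lower calls numbered 0 by edgeR and 4 by DESeq2. VC.1 and VC.4, the libraries with the largest macrophage sums, also had the largest Cd14 values, and the part of macrophage RNA in the receptor values was not tested.

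Myd88 (ENSMUSG00000032508, chr9:119335934-119341411, minus strand), the adaptor that passes the signal from Tlr4 to the Irak kinases, had 213, 307, 370.0 and 319 normalized counts in VC and 274, 346, 318 and 298 in AP. The AP values all fell inside the VC range (log2 fold change 0.055 ± 0.19 SE, adjusted p = 0.873, 95% interval -0.36 to 0.47). The direction of so small a difference changed without VC.1 (-0.10). Of the 33 further adaptors and kinases, all were tested, 2 were called higher (6.06%, close to the 6.33% of all genes) and 0 lower (against 4.0%), and their median log2 fold change was 0.063. At an unadjusted p under 0.05 limma had 6 higher and 1 lower (against 17% and 13.3% of all genes). edgeR called 2 higher and 0 lower, and DESeq2 3 higher and 0 lower. Irak2, a kinase that prolongs signalling from Myd88, had 47.3, 36.9, 28.7 and 26.3 normalized counts in VC and 62.4, 92.7, 87.2 and 102 in AP (log2 fold change 1.30 ± 0.30 SE, adjusted p = 0.0263), with no overlap between the groups. Tollip, which binds Irak1 and holds back receptor signalling, had 322, 384, 439.7 and 390.0 in VC and 507, 500.4, 682 and 699.5 in AP (log2 fold change 0.63 ± 0.17 SE, adjusted p = 0.0425), also without overlap. The adjusted p of Irak2 rose to 0.0774 without AP.2, 0.0905 without AP.3 and 0.0865 without AP.4, and over all alternatives it ran from 0.000709 to 0.0905. That of Tollip rose to 0.0923 without VC.1, 0.0660 without VC.2, 0.0647 without VC.4, 0.0653 without AP.2, 0.136 without AP.3, 0.120 without AP.4, 0.0559 by limma-voom, 0.0942 with no intensity trend, 0.0541 with upper-quartile factors, 0.0514 with reads drawn down and 0.0779 with the length trend removed, within a range of 0.000940 to 0.136.

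The other named steps between Myd88 and NF-kB did not pass the test. Irak1, one of the Irak kinases, averaged 585 ± 167 normalized counts in VC and 433 ± 34.5 in AP (SD, n = 4), with overlapping groups and an adjusted p of 0.199 in limma. Traf6, the ubiquitin ligase that follows these kinases, averaged 147 ± 55.1 in VC and 219.6 ± 49.9 in AP (SD, n = 4, adjusted p = 0.156). In the IkB kinase complex, the log2 fold change was 0.078 for Chuk (95% interval -0.32 to 0.47), 0.052 for Ikbkb (-0.34 to 0.44) and 0.41 for Ikbkg (0.026 to 0.79), with adjusted p-values of 0.801, 0.871 and 0.141. Chuk and Ikbkb encode the catalytic subunits and Ikbkg the regulatory one.

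Among the NF-kB subunits, Nfkb1 (ENSMUSG00000028163, chr3:135584655-135691547, minus strand), whose protein is cut to p50, had 466, 514, 412 and 529 normalized counts in VC and 594, 785, 673 and 848 in AP. Its lowest AP library lay above its highest VC library, and it was called higher (log2 fold change 0.59 ± 0.16 SE, adjusted p = 0.0420, 95% interval 0.23 to 0.94). The call was a narrow one. The adjusted p was 0.0797 without VC.1, 0.0548 without VC.2, 0.0759 without VC.3, 0.0510 without VC.4, 0.110 without AP.2, 0.102 without AP.3, 0.119 without AP.4, 0.0945 with no intensity trend, 0.0538 with upper-quartile factors and 0.113 with the length trend removed. Of the runs without 1 library, it stayed under 0.05 only without AP.1 (0.0292). The length trend is that of each library's log2 values, taken relative to the mean of each gene, with transcript length. Over all alternatives the adjusted p ran from 0.000467 to 0.119, and the fold change stayed above 0 in each of them. Rel (ENSMUSG00000020275, chr11:23736847-23770970, minus strand), which encodes the subunit c-Rel, had 43.7, 57.6, 51.9 and 41.3 in VC and 92.1, 101, 129.5 and 149 in AP. The groups did not overlap and Rel was called higher (log2 fold change 1.25 ± 0.26 SE, adjusted p = 0.0182), with an adjusted p of 0.0743 without AP.3, 0.0658 without AP.4 and 0.0657 with the length trend removed, out of a range of 0.000203 to 0.0743.

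Rela (ENSMUSG00000024927, chr19:5637483-5648130, plus strand), which encodes the p65 subunit that partners p50, had 369, 411, 385 and 399 normalized counts in VC and 442, 447, 392 and 439 in AP. The groups overlapped at AP.3, which lay below VC.2 and VC.4, and the difference did not pass the test (log2 fold change 0.14 ± 0.14 SE, adjusted p = 0.529, 95% interval -0.16 to 0.43). Nfkb2 (ENSMUSG00000025225, chr19:46304320-46312385, plus strand), whose protein is cut to p52 in the non-canonical branch, had 96.4, 233, 313 and 306 in VC and 236, 292, 238 and 240.3 in AP (log2 fold change 0.22 ± 0.33 SE, adjusted p = 0.689). VC.1 alone lay far below the other 7 libraries, and without it the log2 fold change turned to -0.17. Relb (ENSMUSG00000002983, chr7:19606217-19629438, minus strand), the partner of p52, had 104, 123, 186 and 129 in VC and 122, 142, 102 and 140.2 in AP (log2 fold change -0.076 ± 0.23 SE, adjusted p = 0.853). Its groups overlapped, and its fold change turned to 0.087 without VC.3, to 0.022 without AP.3 and to 0.79 under total counts, which is -0.11 relative to the median of all genes. Whether reads were counted by strand is not given in the sources used here, so the values of Nfkb2 and Myd88, which overlap other genes in the annotation, are uncertain to that extent.

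Among the 10 genes, the inhibitor Tnfaip3 had the largest fold change and the smallest adjusted p. Tnfaip3 (ENSMUSG00000019850, chr10:19000910-19015657, minus strand), which encodes the ubiquitin-editing enzyme A20 that shuts off signalling to the IkB kinases, had 30.9, 17.7, 47.8 and 16.9 normalized counts in VC and 147, 122, 153 and 109 in AP. Every AP library was well above the highest VC library, on 17, 12, 35 and 9 reads in VC and 203, 226, 307 and 152 in AP. The mean was 4.68 times as high in AP as in VC (28.3 ± 14.5 against 133 ± 20.9, SD, n = 4), and limma called it higher (log2 fold change 2.30 ± 0.36 SE, adjusted p = 0.00843, 95% interval 1.52 to 3.08). It was called in each of the 22 alternatives, with adjusted p-values from 9.09e-08 to 0.0363, and without 1 library the log2 fold change ran from 2.10 to 2.59. Nfkbia (ENSMUSG00000021025, chr12:55489410-55492647, minus strand), which encodes IkB-alpha, had 313, 362, 531 and 401 in VC and 725, 879, 598 and 588 in AP. The groups did not overlap, though VC.3 came close to AP.4, and the gene was called higher (log2 fold change 0.80 ± 0.20 SE, adjusted p = 0.0309, 95% interval 0.37 to 1.24). Its adjusted p was 0.0688 without VC.1, 0.0558 without VC.2, 0.0515 without VC.4, 0.0863 without AP.2, 0.0703 without AP.3, 0.0575 without AP.4 and 0.0795 with no intensity trend, within a range of 0.000962 to 0.0863. Its log2 fold change stayed between 0.68 and 0.95 without any 1 library.

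Of 19 further NF-kB proteins, inhibitors and feedback regulators, 3 were called higher (15.8%, against 6.33% of all genes) and 1 lower (5.26%, against 4.0%), with a median log2 fold change of 0.30 and 15 above 0. At an unadjusted p under 0.05 limma had 5 higher and 1 lower (against 17% and 13.3% of all genes). Calls by edgeR were 2 higher and 1 lower, and those by DESeq2 were 4 higher and 1 lower. Zfp36, which encodes tristetraprolin, a protein that speeds decay of cytokine mRNAs, had 204, 288, 369 and 332 normalized counts in VC and 1247, 929.6, 954 and 737 in AP. Its AP values were all far above its VC values (log2 fold change 1.70 ± 0.22 SE, adjusted p = 0.00360), and the adjusted p stayed under 0.05 without any 1 library, at 0.00286 to 0.0157. Zc3h12a, which encodes the RNase Regnase-1 that also degrades cytokine mRNAs, had 20.01, 54.7, 95.6 and 31.9 in VC and 91.4, 104, 175 and 165 in AP (log2 fold change 1.56 ± 0.44 SE, adjusted p = 0.0459). VC.3 lay above AP.1. The adjusted p of Zc3h12a was 0.0879 without VC.1, 0.0564 without VC.2, 0.0871 without VC.4, 0.0848 without AP.2, 0.138 without AP.3, 0.122 without AP.4, 0.0581 by edgeR, 0.0664 by limma-voom, 0.0892 with no intensity trend, 0.0524 with no filter, 0.0559 with total counts less mitochondrial genes, 0.0566 with reads drawn down and 0.0528 with the length trend removed, out of a range of 0.00312 to 0.138. Nfkbiz, an atypical IkB protein of epithelia, had 80.0, 149, 169 and 75.0 in VC and 194, 170.4, 240.2 and 255 in AP, without overlap but short of the threshold (log2 fold change 0.93 ± 0.29 SE, adjusted p = 0.0609).

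Commd1, which promotes the degradation of Rela protein, went the other way, with 140.1, 112, 122 and 101 normalized counts in VC and 79.1, 62.0, 63.3 and 59.4 in AP (log2 fold change -0.84 ± 0.23 SE, adjusted p = 0.0404). Every AP library lay below every VC library, but under total counts the log2 fold change was 0.022, below the median of all genes at 0.90. The adjusted p of Commd1 was 0.0737 without VC.1, 0.0590 without VC.2, 0.0637 without VC.3, 0.0985 without AP.2, 0.117 without AP.3, 0.107 without AP.4, 0.947 with total counts, 0.0527 with total counts less mitochondrial genes and 0.0511 with reads drawn down, within a range of 0.00258 to 0.947.

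Of the outputs, Tnf (ENSMUSG00000024401, chr17:35199381-35202007, minus strand), the cytokine tumor necrosis factor, had 0, 5.91, 12.3 and 15.0 normalized counts in VC and 10.9, 8.09, 8.47 and 15.0 in AP, from 0, 4, 9 and 8 reads and 15, 15, 17 and 21 reads. The groups overlapped, and a difference was not detected (log2 fold change 0.87 ± 0.83 SE, adjusted p = 0.510, 95% interval -0.96 to 2.70). The fold change rested on VC.1, where Tnf had no read, and without that library it was -0.0072. Nlrp3 (ENSMUSG00000032691, chr11:59541568-59566956, plus strand), the sensor protein of an inflammasome, had 0, 8.87, 1.37 and 13.1 in VC and 3.63, 4.31, 6.98 and 7.87 in AP, from at most 14 reads in a library. Its fold change was also carried by a count of 0 in VC.1 (log2 fold change 0.60 ± 0.88 SE, adjusted p = 0.678, 95% interval -1.32 to 2.52), with -0.10 without that library and -0.017 by edgeR.

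Of 37 classical NF-kB target genes, 36 were analysed here and 31 passed the filter on low values, of which 4 were called higher (12.9%, against 6.33% of all genes) and 0 lower (against 4.0%), with a median log2 fold change of 0.17. Of the 31, 7 were higher and 2 lower at an unadjusted p under 0.05 in limma (against 17% and 13.3% of all genes), with 3 higher and 0 lower by edgeR and 6 higher and 3 lower by DESeq2. A low gene passed the filter through the group in which it was high, so these counts carry no weight as support. Ptgs2, which encodes the prostaglandin synthase COX-2, had 5.46, 4.43, 5.46 and 1.88 normalized counts in VC and 52.2, 60.9, 66.3 and 82.3 in AP (log2 fold change 3.70 ± 0.44 SE, adjusted p = 0.00237). It rested on 3, 3, 4 and 1 reads in VC and 72, 113, 133 and 115 in AP, and the call held without any 1 library, at adjusted p-values from 0.00284 to 0.0204. Sele, which encodes E-selectin, the endothelial adhesion molecule that captures leukocytes, had 0, 1.48, 6.83 and 0 in VC and 29.7, 106, 48.3 and 15.0 in AP (log2 fold change 4.26 ± 0.81 SE, adjusted p = 0.0142). AP.2 was the highest library for Sele as for Tlr4 and the endothelial markers, and the part of endothelial RNA in its difference was not tested. The adjusted p of Sele was 0.0551 without AP.3 and 0.0604 by limma-voom, within a range of 7.54e-05 to 0.0604.

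The neutrophil chemokines Cxcl1 and Cxcl2 were called higher as well. Cxcl1 had 0, 0, 17.8 and 1.88 normalized counts in VC and 43.5, 30.2, 28.4 and 30.8 in AP (log2 fold change 3.64 ± 0.87 SE, adjusted p = 0.0275), and in VC nearly all of its reads came from VC.3. Cxcl2 had 0, 10.3, 2.73 and 7.50 in VC and 38.4, 33.4, 21.9 and 38.6 in AP (log2 fold change 2.94 ± 0.73 SE, adjusted p = 0.0312). No AP library of either gene fell into the VC range. The adjusted p of Cxcl1 was 0.0552 without VC.1, 0.0691 without AP.2, 0.0816 without AP.3, 0.0749 without AP.4, 0.0697 by edgeR and 0.0563 with no intensity trend, out of a range of 0.00212 to 0.0816. That of Cxcl2 was 0.0514 without VC.3, 0.0521 without AP.1, 0.0811 without AP.2, 0.0792 without AP.3, 0.0891 without AP.4 and 0.0563 with no intensity trend, out of 0.000455 to 0.0891. Fold changes of genes this low depend on the pseudocount: with 5 in place of 1, the log2 fold change was 2.26 for Cxcl1, 2.01 for Cxcl2, 2.77 for Sele and 2.92 for Ptgs2. Of 8 neutrophil markers, 6 were analysed here and none of the 3 tested was called by limma, edgeR or DESeq2 or at an unadjusted p under 0.05. The 6 summed to 106, 44.3, 46.4 and 114 in VC and 47.9, 73.3, 62.8 and 55.1 in AP. Csf3r led the sum except in AP.3 and AP.4, where Cxcr2 was higher (35.9 against 16.4 and 29.3 against 17.9). The tested markers went both ways, with ratios of AP to VC means of 0.536 for Csf3r, 0.762 for Camp and 2.78 for Cxcr2. Il6, a cytokine, had 0, 0, 5.46 and 0 in VC and 19.6, 11.3, 5.48 and 7.15 in AP, with the lowest AP library level with VC.3 (log2 fold change 2.75 ± 0.83 SE, adjusted p = 0.0554). Il1b, the cytokine that inflammasomes activate, had 10.9, 16.3, 12.3 and 50.6 in VC and 21.8, 43.7, 48.3 and 36.5 in AP, with overlapping groups (adjusted p = 0.240). In VC, the reads of Il6 came from VC.3 alone, and Il1b was high in VC.4 only. Ccl2, which draws monocytes, and Icam1, a ligand of leukocyte integrins, also overlapped between the groups (adjusted p = 0.465 and 0.247).

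In the inflammasome and TNF receptor lists, limma called Adam17 alone. Of 13 further inflammasome genes, 12 were tested and 0 were called by limma, edgeR or DESeq2, where limma called 6.33% of all genes higher and 4.0% lower. At an unadjusted p under 0.05 in limma, 2 were higher and 0 lower (against 17% and 13.3% of all genes), with a median log2 fold change of -0.023. Pycard, the adaptor of inflammasomes, had 402, 338, 345 and 302 normalized counts in VC and 394, 382, 618 and 869.7 in AP (log2 fold change 0.63 ± 0.25 SE, adjusted p = 0.119). AP.3 and AP.4, which stood above all VC libraries for Pycard, were also the libraries with the largest sums of suprabasal keratinocyte markers. Casp1, the protease that inflammasomes activate, had 50.9, 59.1, 91.5 and 199 in VC and 92.1, 86.3, 79.7 and 78.7 in AP (log2 fold change -0.036 ± 0.38 SE, adjusted p = 0.961). Of 11 genes of TNF receptors and signalling, 1 was called higher (9.09%, against 6.33% of all genes) and 0 lower (against 4.0%), with a median log2 fold change of 0.15. Limma had 2 higher and 1 lower at an unadjusted p under 0.05 (against 17% and 13.3% of all genes), edgeR called 1 higher and 0 lower, and DESeq2 2 higher and 1 lower. Adam17, the protease that releases TNF from the cell surface, had 280.1, 297, 304 and 294 in VC and 429, 454, 508 and 519 in AP (log2 fold change 0.69 ± 0.14 SE, adjusted p = 0.0174). Its VC libraries lay close together and all AP libraries lay above them, with an adjusted p of 0.0706 without AP.3 and 0.0588 without AP.4 and a range of 0.000131 to 0.0706. Tnfrsf1a, the main TNF receptor, had 731, 979.8, 1001 and 737 in VC and 1199, 1317, 1176 and 1186 in AP, without overlap but short of the threshold (log2 fold change 0.51 ± 0.15 SE, adjusted p = 0.0552).

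**Figure D2:**
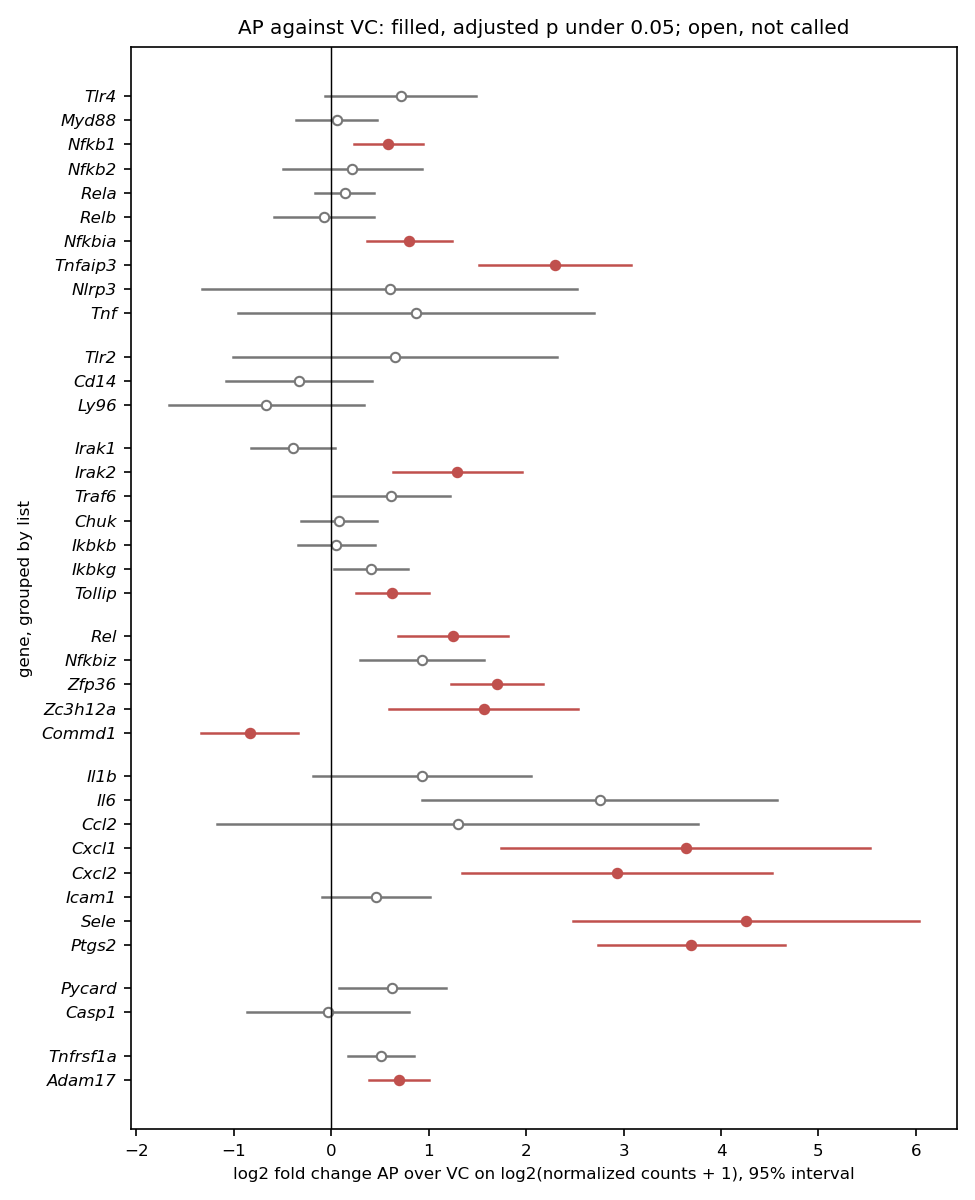
Log2 fold change of AP over VC on log2(normalized counts + 1) (horizontal axis) with its 95% interval. Rows are the 10 pathway genes and the other genes named from the pathway lists (vertical axis, grouped by list). Symbols are filled in red where the adjusted p was under 0.05. Of the other genes, 11 are filled, and Commd1 (-0.84) is the only filled one below 0.

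Over the 6 further lists together, 121 genes were tested, 10 were called higher (8.26%, against 6.33% of all genes) and 1 lower (0.826%, against 4.0%). Their median log2 fold change was 0.15, against 0.058 over all genes tested. In 15 of them the groups separated with AP above VC (12.4%, against 10.3% of all genes). In 4 they separated with AP below VC (3.31%, against 8.91%). The higher shares lay near those of all genes and are not a result about the pathway, while the lower shares lay below those of all genes, a difference that was not tested.

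Levels of different genes were compared as normalized counts per kilobase of exon. Nfkbia had the highest level in both groups (249.6 ± 58.1 per kilobase in VC and 433 ± 84.6 in AP, SD, n = 4), above Rela (127 in VC) and Myd88 (117 in VC). Nfkb2, Nfkb1 and Relb followed in VC at 51.7, 39.8 and 34.8 per kilobase. Tlr4 (7.44), Tnf (5.06), Tnfaip3 (3.92) and Nlrp3 (1.44) were the lowest in VC. On this scale the ranges over libraries overlapped between every pair of neighbours in the VC order except Nfkbia above Rela, Myd88 above Nfkb2 and Relb above Tlr4. In AP, Tnfaip3 stood at 18.4 ± 2.90 per kilobase (SD, n = 4), rank 7 in place of rank 9, and Nfkb1 stood above Nfkb2, though the AP ranges of Tnfaip3 and Tlr4 overlapped, as did those of Nfkb1 and Nfkb2.

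The 250 bases before the RefSeq starts (GRCm38.p6, the same build as mm10) were searched on both strands for the kB consensus. This is the 10-base motif that NF-kB binds. Of the 10 genes, 7 had a promoter in the RefSeq table, all but Tlr4, Nfkb1 and Relb, and 4 of the 7 (Nfkb2, Nfkbia, Tnfaip3 and Nlrp3) held the consensus in at least 1 of their windows, while Myd88, Rela and Tnf did not. Of the 13744 genes of the whole table with such a window, 10.5% held it. The 10 genes include feedback targets of NF-kB, and the other lists include its classical targets. A larger share among them was therefore built into the choice of genes and carries no weight as support. Both called and uncalled genes were thus among the holders, and of the 18 genes with a window among the 10 genes and the 11 called in the other lists, 7 held it, with Rel, Cxcl1 and Cxcl2 added. The promoters of the inhibitors Tnfaip3, chr10:19015411-19015660 (minus strand), and Nfkbia, chr12:55492648-55492897 (minus strand), and of the chemokines Cxcl1, chr5:90890995-90891244 (plus strand), and Cxcl2, chr5:90903649-90903898 (plus strand), are shown as examples of genes that were called higher and hold the consensus, which is in capitals. Rel meets the same terms and is not shown. For Tnfaip3 the window is that of the first of 2 RefSeq starts, and the other window holds no match.
Tnfaip3: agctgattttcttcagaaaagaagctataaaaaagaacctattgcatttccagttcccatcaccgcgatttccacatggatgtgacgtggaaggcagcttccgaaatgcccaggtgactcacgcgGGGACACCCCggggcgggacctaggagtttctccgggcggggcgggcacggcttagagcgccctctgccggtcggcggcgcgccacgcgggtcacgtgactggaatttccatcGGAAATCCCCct
Nfkbia: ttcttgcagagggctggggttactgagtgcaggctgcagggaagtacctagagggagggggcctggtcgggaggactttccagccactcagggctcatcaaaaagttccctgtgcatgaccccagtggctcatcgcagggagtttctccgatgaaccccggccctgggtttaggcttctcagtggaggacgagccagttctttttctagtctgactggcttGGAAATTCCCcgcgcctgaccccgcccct
Cxcl1: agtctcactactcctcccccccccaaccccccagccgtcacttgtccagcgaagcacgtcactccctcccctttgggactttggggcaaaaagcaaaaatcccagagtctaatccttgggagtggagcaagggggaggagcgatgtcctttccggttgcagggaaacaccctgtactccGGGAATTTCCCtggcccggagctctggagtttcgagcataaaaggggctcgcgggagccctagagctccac
Cxcl2: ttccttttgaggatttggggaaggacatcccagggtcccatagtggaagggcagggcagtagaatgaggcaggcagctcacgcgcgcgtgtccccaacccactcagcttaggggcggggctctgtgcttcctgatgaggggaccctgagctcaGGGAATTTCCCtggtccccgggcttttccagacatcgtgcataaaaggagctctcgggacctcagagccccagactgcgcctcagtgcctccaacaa

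In Nfkbia the match starts 29 bases before the transcription start, and Tnfaip3 holds 1 match that starts 12 bases and another, on both strands, that starts 125 bases before this RefSeq start. GENCODE places the start of Tnfaip3 further upstream, so that nearly all of this window lies inside the gene as given above, and the ends of the Cxcl1 and Cxcl2 windows also lie inside the GENCODE genes. In Cxcl1 and Cxcl2 the matches on both strands overlap in 1 run of 11 bases, which starts 71 bases before the start in Cxcl1 and 97 in Cxcl2. A match describes the letters and does not show that the factor binds there, and no match says only that these letters are not in the window.

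Markers of several cell types moved with the groups, and their part in the pathway results was not tested. Suprabasal keratinocyte markers (9 genes, Krt10 the most abundant, none at 0) summed to 6241, 13482, 9119.9 and 6180.1 normalized counts in VC and 44690.2, 42404, 123834 and 174401 in AP, although the epidermis between the follicles had been removed, and 8 of 9 were called higher. Mast cell markers (6 genes, Mcpt4 the most abundant) summed to 1151, 705, 685 and 1326 normalized counts in VC and 601, 621, 423 and 345 in AP, and 2 of 6 were called lower. Ms4a2, with 0 reads in VC.3 and VC.4, and Kit went the other way (ratios of AP to VC means 1.25 and 1.07), neither of them called. The sums of the endothelial, suprabasal keratinocyte and mast cell markers and of the mitochondrially encoded genes did not overlap between the groups, at a two-sided exact permutation p = 0.0286 each, the smallest that 4 against 4 libraries allow, and 0.100 after adjustment over 14 sums. The other sums overlapped, with ratios of AP to VC means of 0.818 for pan-leukocyte, 1.02 for T cell, 0.715 for Langerhans and dendritic cell, 1.90 for basal keratinocyte, 1.37 for fibroblast, 1.02 for adipocyte, 0.467 for skeletal muscle and 1.48 for red blood cell markers. A sum can hide its less abundant genes. The T cell sum was mostly Thy1 (ratio 0.927), while 5 of the 6 T cell markers were higher at an unadjusted p under 0.05 (against 17% of all genes) and Trdc was called higher (ratio 3.59). In the Langerhans and dendritic cell list, Cd74 led the sum (ratio 0.752) and Cd207 was called higher (ratio 3.68). Of the other markers, 2 of 5 endothelial (Pecam1 and Cdh5, adjusted p = 0.0198 and 0.0386), 3 of 6 basal keratinocyte and 1 of 5 red blood cell markers were also called higher. Several of these calls were lost under some alternatives. Over all genes tested, limma called 6.33% higher and 4.0% lower. The red blood cell marker Hba-a2 went the other way (log2 fold change -0.81, adjusted p = 0.0901 in limma and 0.0396 by DESeq2). Without AP.1 the ratio for skeletal muscle markers was 0.183.

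**Figure D3:**
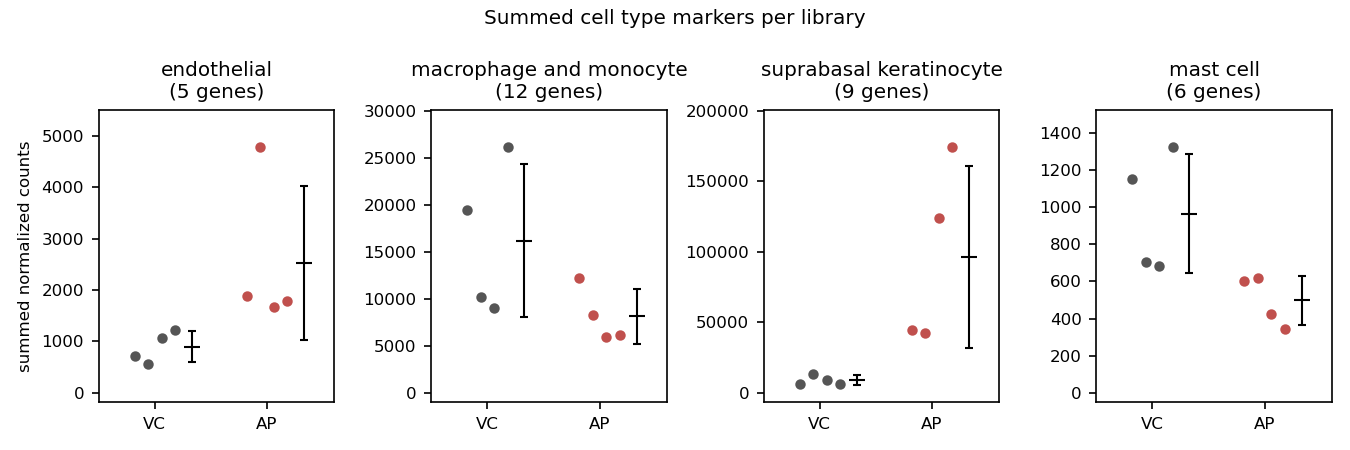
Summed normalized counts (vertical axis, from 0) of 4 marker lists in each VC (grey) and AP (red) library, with the mean and SD of 4 libraries as a black bar. Endothelial and suprabasal keratinocyte sums are higher in every AP library, mast cell sums are lower in every AP library, and macrophage and monocyte sums overlap.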

How the data were processed

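Messenger RNA of skin was sequenced in 4 AP and 4 VC libraries. The authors aligned the reads to mm10 with STAR, counted them per gene and normalized them with DESeq2, with versions not given in the sources used here, and the counting tool is named differently in the methods (featureCounts) and in the submitters' processing notes (HTSeq). The deposited signal is, for each gene, the reads over the size factor of the library, as the authors computed it, and 100% of the 150160 values were whole numbers of reads within 0.01 reads, so reads could be recovered. The table also holds 6 columns of the authors' own DESeq2 comparison (a mean, fold change, its error, a statistic and p-values), which were not used. The paper gives 4 mice per group for a heat map of these data, which matches the 4 columns per group, so columns were taken as separate mice, though they are named by group and number only and not tied to sample titles.

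Log2(value + 1) was fitted with limma 3.58.1 in R 4.3.3 (empirical Bayes moderation with an intensity trend) for the 15964 genes that reached 3 normalized counts in 4 or more libraries, and p-values were adjusted by Benjamini-Hochberg over all of them. Fold changes of low genes on this scale depend on the pseudocount, and a count of 0 in 1 library can enlarge them. Marker sums were compared by a two-sided exact permutation test. The 10 members, the other lists and the rule for naming genes (all members, all called genes of the other lists, 18 genes named whether called or not and the 5 genes most like Tlr4) were chosen with earlier results of these data known. Alternatives were edgeR 4.0.16 and DESeq2 1.42.0 on the recovered reads, limma-voom, other pseudocounts, filters and scalings, reads outside the mitochondrial genes drawn down to the smallest such number in a library, removal of the trend with transcript length, and leaving out each library. The scripts were tested on simulated data. No pair of libraries in a group agreed within sampling noise. Coordinates and exon lengths were taken from GENCODE M21, which holds 18766 of the 18770 identifiers, and promoters from RefSeq.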

Additional observations from a re-analysis of the deposited data

Results flagged for a closer look

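In 12 of 102 groups of 4 libraries looked at, 1 library stood far from the other 3, and chance gives this in about 1 group in 20. Nfkb2 had 292 normalized counts in AP.2, above the other 3 libraries of its group (236 to 240.3). Rela had 392 normalized counts in AP.3, below the other 3 libraries of its group (439 to 447). Cxcl1 had 17.8 normalized counts in VC.3, above the other 3 libraries of its group (0 to 1.88). Cxcl1 had 43.5 normalized counts in AP.1, above the other 3 libraries of its group (28.4 to 30.8). Tlr2 had 51.8 normalized counts in AP.2, above the other 3 libraries of its group (35.0 to 37.0). Il1b had 50.6 normalized counts in VC.4, above the other 3 libraries of its group (10.9 to 16.3). Il6 had 5.46 normalized counts in VC.3, above the other 3 libraries of its group (all 0). Tnfrsf1a had 1317 normalized counts in AP.2, above the other 3 libraries of its group (1176 to 1199).

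The same distance was seen for 4 marker sums. The summed pan-leukocyte markers were 2719 in VC.4, above the other 3 libraries of its group (1262 to 1483). The summed pan-leukocyte markers were 1927 in AP.1, above the other 3 libraries of its group (1171 to 1298). The summed endothelial markers were 4786 in AP.2, above the other 3 libraries of its group (1678 to 1886). The summed skeletal muscle markers were 46471 in AP.1, above the other 3 libraries of its group (3986 to 8775). AP.2 was the library concerned for Nfkb2, Tlr2, Tnfrsf1a and the endothelial markers.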

How the results depend on the processing

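Over all genes, 1011 were called higher and 639 lower, against 1677 and 1362 by DESeq2, 376 and 216 by limma without an intensity trend and 8657 and 70 with total counts, which shifted all genes. Removing the trend with transcript length left 580 higher. The higher calls were 61.3% of all calls, 49.9% with upper-quartile factors and 99.2% with total counts. edgeR's quasi-likelihood test on the recovered reads called 1003 higher and 712 lower. Without 1 library, 209 to 1082 genes were called higher and 94 to 817 lower. Of the 10 pathway genes, 3 were called higher, 1 without an intensity trend, 8 with total counts and 1 to 3 without 1 library, and none was called lower under any alternative tried. Of the other pathway genes, 10 were called higher, 6 without an intensity trend, 71 with total counts and 2 to 13 without 1 library. Lower calls among them numbered 1, 6 by DESeq2, 3 with upper-quartile factors or at an unadjusted p under 0.01 with a fold change over 1.5, 2 with limma-voom, a pseudocount of 5, a filter of 10 normalized counts or the length trend removed, 0 with total counts, with or without mitochondrial genes, and 0 to 2 without 1 library. Runs without 1 library also hold fewer libraries, and the causes of these changes were not tested.

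The fold changes of 5 pathway genes changed direction, none of them called in AP against VC. Myd88 turned to -0.0066 with upper-quartile factors and ran from -0.10 to 0.16 without 1 library, Nfkb2 from -0.17 to 0.39, Relb from -0.19 to 0.087 and Tnf from -0.0072 to 1.33. Relb turned to 0.79 with total counts. Nlrp3 turned to -0.017 by edgeR and -0.018 by DESeq2, and ran from -0.10 to 1.18 without 1 library. Of 219 values for the 10 genes under the alternatives, 187 kept their direction and their side of the threshold, 17 lost the call (Nfkb1 10 and Nfkbia 7), 4 gained one with total counts and 11 changed direction, among them Relb, which also gained a call with total counts. Nlrp3 gave no value under the filter of 10 normalized counts. No paired analysis was possible because the sample titles share no replicate numbers between the groups and the columns are not tied to titles. Tnf and Nlrp3 had at most 21 reads in any library, so moderate differences in them were not detectable at this depth.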
